A study of Mus musculus with 4 samples.

Results

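Integrins are the cell surface receptors that hold cells to the extracellular matrix. The transcripts of 10 integrin subunit genes, Itga2, Itga3, Itga5, Itga11, Itgav, Itgb1, Itgb3, Itgb5, Itgb6 and Itgb8, were described in cultured mouse mammary tumour cells. These 10 were chosen by name, as subunits that bind matrix or activate the growth factor TGF-beta, from the 50679 genes of the deposited table. The table holds 4 libraries. Of these, 2 are labelled PCNA 211F and 2 PCNA WT, and all 4 come from cells that carry PyMT, the polyoma middle T oncogene, which drives mammary tumours. PCNA is the sliding clamp of DNA replication, and 211F is given as the labels write it. Per the labels, tumours of mice aged 10 weeks were dissociated, cells bearing the epithelial antigen EpCAM were pulled out with an antibody, and the cells were plated in medium with serum at a density of 100000. The labels call the cells epithelial adenocarcinoma of luminal subtype. The sources used here do not give the promoter that drives PyMT, nor whether the libraries of a genotype came from separate animals. The p-values therefore speak only of the spread among these 4 libraries, which may not be a spread among animals.

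An integrin is a pair of an alpha and a beta subunit, and the pair sets which matrix protein it binds. Beta 1 is the most widely shared partner: with alpha 2 or alpha 11 it binds collagen, with alpha 3 laminin, and with alpha 5 fibronectin. Alpha v pairs with beta 1, 3, 5, 6 or 8 and reads the short RGD motif of fibronectin, vitronectin and the latency peptide of TGF-beta 1 and TGF-beta 3. Pairs with beta 6, which is largely confined to epithelia, and with beta 8 bind that latency peptide and release or expose the growth factor.

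Levels are in FPKM, a fragment count divided by transcript length and library size, so levels can be set beside each other between genes. Differences are in log2(FPKM + 1), always 211F minus WT, a scale that understates the change of low genes. The value of 3 fragments in 1 kb of transcript was 0.0783 FPKM in 211F 1 and 0.0911 FPKM in 211F 2, against 0.0854 FPKM in WT 1 and 0.0497 FPKM in WT 2. Of the 40 values of the 10 subunits, 2 lay below 3 fragments of the longest annotated transcript.

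The libraries did not match their epithelial label equally. The summed level of 12 epithelial markers was 3312 FPKM in 211F 1 and 3624 FPKM in 211F 2, against 3120 FPKM in WT 1 and 7.28 FPKM in WT 2, and the captured antigen Epcam stood at 0.893 FPKM in WT 2 and at 77.3 FPKM or more in the other libraries. The summed level of 11 mesenchymal markers, Fn1 among them, was 4707 FPKM in 211F 1 and 76.4 FPKM in 211F 2, against 422 FPKM in WT 1 and 4518 FPKM in WT 2. Fibroblast markers summed to 282 and 6.40 FPKM in 211F 1 and 211F 2, against 51.7 and 1080 FPKM in WT 1 and WT 2. Of the same 11 fibroblast markers, 3 stayed under 1 FPKM in all libraries, Lum, Fap and Dpt. WT 2 therefore stood apart in its epithelial sum and went against its label, and the difference of each subunit below is given with and without it. In 211F 1 the mesenchymal sum was the highest, and Epcam lay below the 450 FPKM of 211F 2 and the 444 FPKM of WT 1. Epithelial markers were not alike: Krt5 was at 1029 and 3.84 FPKM in 211F 1 and 211F 2, against 245 and 1.23 FPKM in WT 1 and WT 2. Myeloid markers summed to 8.23 and 15.0 FPKM in 211F 1 and 211F 2, against 69.8 and 12.6 FPKM in WT 1 and WT 2, and lymphoid markers to at most 0.157 FPKM. A single gene, Cd14, made most of the myeloid sums: it was at 3.55 and 12.6 FPKM in 211F 1 and 211F 2, against 67.2 and 7.53 FPKM in WT 1 and WT 2, less than the rest together in 211F 1 alone. Endothelial markers summed to 52.8 FPKM in WT 2, of which Eng made 52.5 FPKM, and to at most 2.51 FPKM in the other libraries. The pan-leukocyte gene Ptprc did not exceed 0.0180 FPKM. The 7 platelet markers summed to 4.10 and 2.54 FPKM in 211F 1 and 211F 2, against 5.21 and 6.84 FPKM in WT 1 and WT 2. Of these, Gp6 and Pf4 were listed at 0 in every library, but Ppbp was at 2.74 and 0.710 FPKM in 211F 1 and 211F 2, against 1.88 and 1.07 FPKM in WT 1 and WT 2. In bulk RNA, fewer cells of a type and less RNA per cell cannot be told apart.

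No subunit passed the test between genotypes. The limma test on 12767 genes averaging 1 FPKM or more, a level that all 10 subunits reached, called 0 of the 10 subunits and 0% of all genes, with an adjusted p of 0.9999 for each subunit. At an unadjusted p under 0.05 there was 1 subunit, Itga3, and there were 241 genes in all. The difference was positive for 8 subunits and negative for 2, with a median of 0.59 against 0.03 over all genes tested. Without WT 2 it was again positive for 8 subunits, with a median of 0.84, and limma again called 0 of them. These values moved with the other libraries too: without 211F 1 the difference was positive for 6 of the 9 subunits still tested, with a median of 0.14, without 211F 2 for all 10, with a median of 1.39, and without WT 1 for 6 of 10, with a median of 0.79. In 2 of the 10 subunits, Itga3 and Itgb1, both 211F libraries lay above both WT libraries, where 15.2% of all genes tested did so, and in 0 subunits both lay below, against 11.6% of all genes. An exact permutation test of 2 libraries against 2 cannot give a two-sided p below 0.333.

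**Figure D1:**
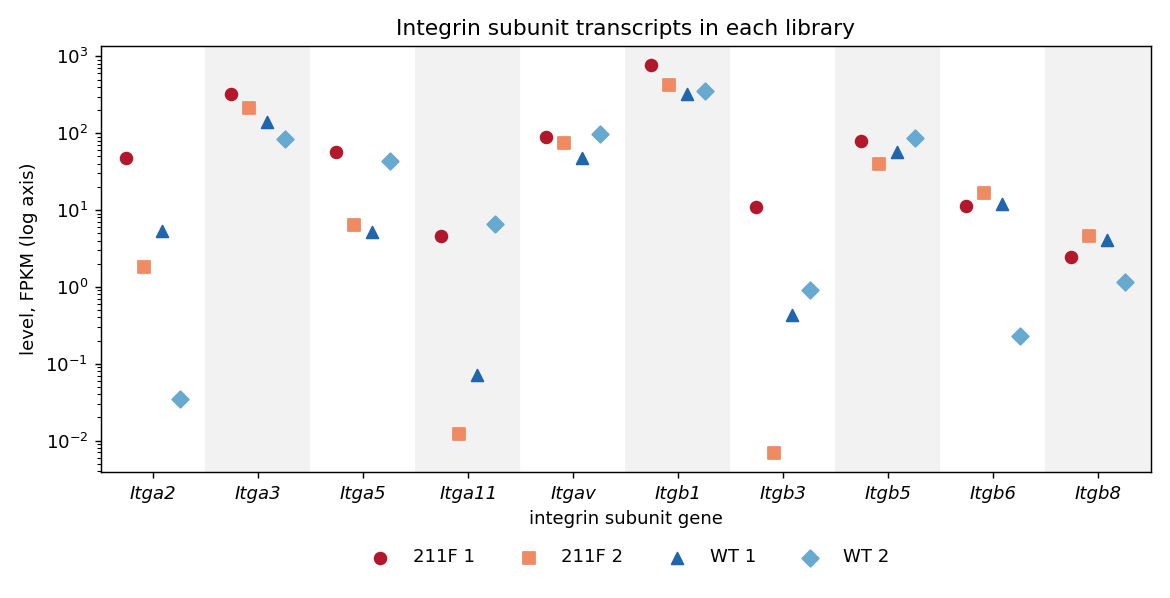
Level of each integrin subunit gene in FPKM on a log axis, 1 point per library, with the 211F libraries drawn left of the WT libraries. The genotypes lie apart only for Itga3 and Itgb1, while Itga5 and Itga11 are high in 211F 1 and WT 2, and Itgb6 is low only in WT 2 (0.231 FPKM).

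Itgb1 encodes beta 1, the partner shared by most matrix integrins (ENSMUSG00000025809; GRCm38 chromosome 8, 128685654 to 128733200, plus strand). It was the most abundant of the 10 subunits in all 4 libraries, at 765 FPKM in 211F 1 and 429 FPKM in 211F 2, against 323 FPKM in WT 1 and 351 FPKM in WT 2. The WT libraries lay close together, 211F 2 lay a little above them, and 211F 1 stood well above the rest. The group levels were 597 ± 238 FPKM in 211F and 337 ± 19.6 FPKM in WT (mean ± SD, n = 2 each), and the difference was 0.77 ± 0.37 (SE; limma adjusted p = 0.9999). That difference was smaller than the 0.83 between the 211F libraries themselves. It was 0.82 without WT 2 and 0.35 without 211F 1.

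Itga3 encodes alpha 3, which with beta 1 binds the laminins of basement membranes (ENSMUSG00000001507; chromosome 11, 95044474 to 95076801, minus strand). Its level was 327 FPKM in 211F 1 and 209.9 FPKM in 211F 2, against 138 FPKM in WT 1 and 83.8 FPKM in WT 2. Both 211F libraries were above both WT libraries. The group levels were 268 ± 82.5 FPKM in 211F and 111 ± 38.5 FPKM in WT (mean ± SD, n = 2 each). The difference of 1.27 ± 0.39 (SE; limma unadjusted p = 0.0309, adjusted p = 0.9999) exceeded the 0.64 between the 211F libraries and the 0.71 between the WT libraries. Itga3 was the only subunit of which this held, as it did of 16.2% of all genes tested. The difference was 0.92 without WT 2 and 0.96 without 211F 1, and ranged from 0.92 to 1.63 over each library left out. Its sign could not turn in these fits, as both 211F values exceed both WT values.

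Itga5 encodes alpha 5 of the main fibronectin receptor (ENSMUSG00000000555; chromosome 15, 103344286 to 103366763, minus strand). It stood at 56.9 FPKM in 211F 1 and 6.31 FPKM in 211F 2, against 5.12 FPKM in WT 1 and 44.0 FPKM in WT 2. A library of each genotype was high and the other low, so the groups overlapped (31.6 ± 35.8 FPKM in 211F and 24.6 ± 27.5 FPKM in WT, mean ± SD, n = 2 each). The difference was 0.31 ± 1.48 (SE), and it was 1.75 without WT 2, 1.80 without 211F 2, -1.13 without WT 1 and -1.18 without 211F 1.

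Itga11 encodes alpha 11, a receptor of fibrillar collagen known mainly from fibroblasts (ENSMUSG00000032243; chromosome 9, 62677826 to 62783982, plus strand). It was at 4.63 FPKM in 211F 1 and 0.0120 FPKM in 211F 2, against 0.0710 FPKM in WT 1 and 6.49 FPKM in WT 2. The high and low libraries were those of Itga5. The 211F 2 value is under the 0.0183 FPKM of 3 fragments in its longest transcript. The difference was -0.25 ± 1.39 (SE), but 1.16 without WT 2 and 0.99 without 211F 2. The same libraries were high in mesenchymal markers: Vim, the filament protein vimentin, was at 1856 FPKM in 211F 1 and 1.86 FPKM in 211F 2, against 124 FPKM in WT 1 and 1634 FPKM in WT 2. Fibrillar collagen genes were not alike: Col5a1 was at 126 and 0.0174 FPKM in 211F 1 and 211F 2, against 1.62 and 71.3 FPKM in WT 1 and WT 2, while Col1a1 was at 2.70 and 0.566 FPKM in 211F 1 and 211F 2, against 0.542 and 437 FPKM in WT 1 and WT 2. The part of cell state in the levels of Itga5 and Itga11 was not tested.

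Itga2 encodes alpha 2, which with beta 1 binds collagen (ENSMUSG00000015533; chromosome 13, 114833081 to 114932100, minus strand). Its level was 46.9 FPKM in 211F 1 and 1.79 FPKM in 211F 2, against 5.39 FPKM in WT 1 and 0.0351 FPKM in WT 2. No other subunit had as wide a range over the 4 libraries (5.53 on the log2 scale), and the groups overlapped. The difference was 2.17 ± 1.75 (SE), 0.85 without WT 2 and 0.12 without 211F 1.

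The promoters of 4 subunits are shown because their transcripts followed different patterns: Itga5 and Itga11 were high in 211F 1 and WT 2, Itga2 was highest in 211F 1, and Itgb6 was near 0 in WT 2 alone. Sequences are from RefSeq on GRCm38.p6, 5′ to 3′ on the gene's strand, and end before the first base of any exon annotated in GENCODE. Capitals mark matches to the motifs searched on both strands: CACCTG, the E-box bound by Snail and Zeb repressors, CAGAC, bound by Smad proteins, TGANTCA, bound by AP-1, and GGGCGG, bound by Sp factors.
Itga5 (chr15:103366792-103367041, minus strand): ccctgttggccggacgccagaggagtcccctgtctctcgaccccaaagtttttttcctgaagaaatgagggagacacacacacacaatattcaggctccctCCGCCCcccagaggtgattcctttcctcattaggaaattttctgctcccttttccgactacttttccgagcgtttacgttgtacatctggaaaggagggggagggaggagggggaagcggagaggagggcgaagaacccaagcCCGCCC
Itga11 (chr9:62677605-62677825, plus strand): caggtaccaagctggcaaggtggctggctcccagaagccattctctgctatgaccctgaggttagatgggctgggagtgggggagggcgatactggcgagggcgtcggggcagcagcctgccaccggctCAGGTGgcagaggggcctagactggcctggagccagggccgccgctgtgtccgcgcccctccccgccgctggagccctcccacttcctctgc
Itga2 (chr13:114932101-114932350, minus strand): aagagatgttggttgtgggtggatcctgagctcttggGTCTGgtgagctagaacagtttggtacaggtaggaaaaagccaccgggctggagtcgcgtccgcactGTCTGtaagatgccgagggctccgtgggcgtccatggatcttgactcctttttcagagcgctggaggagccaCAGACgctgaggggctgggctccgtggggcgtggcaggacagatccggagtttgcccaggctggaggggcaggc
Itgb6 (chr2:60722644-60722853, minus strand): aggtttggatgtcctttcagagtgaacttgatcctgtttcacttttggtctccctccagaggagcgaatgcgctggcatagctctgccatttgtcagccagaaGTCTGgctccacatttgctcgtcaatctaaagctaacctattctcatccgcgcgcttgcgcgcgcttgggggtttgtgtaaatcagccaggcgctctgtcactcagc

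The same motifs were searched in promoters at large. In the full windows of 300 bases, CAGAC was found in 6 of the 9 subunits with a RefSeq promoter (all but Itgb3) and in 49.6% of 32851 promoters. GGGCGG was found in 6 of 9 and in 35.7%, CACCTG in 4 of 9 (Itga3, Itga11, Itgb5 and Itgb8) and in 20.2%, and TGANTCA in 0 of 9 and in 7.81%. Among 26 matches in the subunits, 1 pair of different motifs overlapped. Itga5 and Itga11, which shared their pattern, shared no motif in these windows: Itga5 had 2 CAGAC and 2 GGGCGG matches, and Itga11 had 1 CACCTG match. A match is a run of letters and does not show binding. Which start each culture used is not in the table.

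Itgav encodes alpha v, the partner of all 5 beta subunits described here (ENSMUSG00000027087; chromosome 2, 83724397 to 83806916, plus strand). It was at 89.5 FPKM in 211F 1 and 75.1 FPKM in 211F 2, against 47.0 FPKM in WT 1 and 98.2 FPKM in WT 2. Only WT 1 lay apart, and the groups overlapped. The group levels were 82.3 ± 10.2 FPKM in 211F and 72.6 ± 36.2 FPKM in WT (mean ± SD, n = 2 each), and the difference was 0.27 ± 0.43 (SE), 0.79 without WT 2 and -0.26 without WT 1. Exons of Itgav share 634 bases with Gm13684 on the other strand, which did not exceed 0.0993 FPKM.

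Itgb6 encodes beta 6, the epithelial activator of latent TGF-beta (ENSMUSG00000026971; chromosome 2, 60598292 to 60722643, minus strand). Its level was 11.2 FPKM in 211F 1 and 16.9 FPKM in 211F 2, against 12.0 FPKM in WT 1 and 0.231 FPKM in WT 2. The 3 libraries with epithelial transcripts lay close together and WT 2 lay far below, as it did for the epithelial markers. The difference of 1.88 ± 1.25 (SE) was 0.18 without WT 2, so nearly all of it rested on that library. The share of the epithelial makeup of WT 2 in this was not tested.

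Itgb8 encodes beta 8, the other activating partner of alpha v (ENSMUSG00000025321; chromosome 12, 119158022 to 119238802, minus strand). It was low throughout, at 2.48 FPKM in 211F 1 and 4.62 FPKM in 211F 2, against 4.07 FPKM in WT 1 and 1.16 FPKM in WT 2. The order of the libraries was 211F 2, WT 1, 211F 1 and WT 2, and the groups overlapped. The difference was 0.42 ± 0.63 (SE), and -0.20 without WT 2.

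Itgb5 encodes beta 5, a vitronectin receptor subunit (ENSMUSG00000022817; chromosome 16, 33829665 to 33949338, plus strand). It was the most abundant after beta 1 of the beta subunits chosen here, at 78.7 FPKM in 211F 1 and 39.9 FPKM in 211F 2, against 57.7 FPKM in WT 1 and 85.6 FPKM in WT 2. The WT values lay among the 211F values or just above them. The difference was -0.32 ± 0.44 (SE), -0.04 without WT 2 and 0.16 without 211F 2.

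Itgb3 encodes beta 3, which with alpha v binds vitronectin and osteopontin and is also the beta subunit of the platelet fibrinogen receptor (ENSMUSG00000020689; chromosome 11, 104608000 to 104670476, plus strand). It was at 10.96 FPKM in 211F 1 and 0.00688 FPKM in 211F 2, against 0.431 FPKM in WT 1 and 0.902 FPKM in WT 2. It stood out in 211F 1 and was below the 0.0157 FPKM of 3 fragments in 211F 2. The difference was 1.07 ± 1.35 (SE) and 1.28 without WT 2. Without 211F 1 its mean was under 1 FPKM and it was not tested. The 211F 2 value lay below both WT values, so the positive difference rested on 211F 1.

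**Figure D2:**
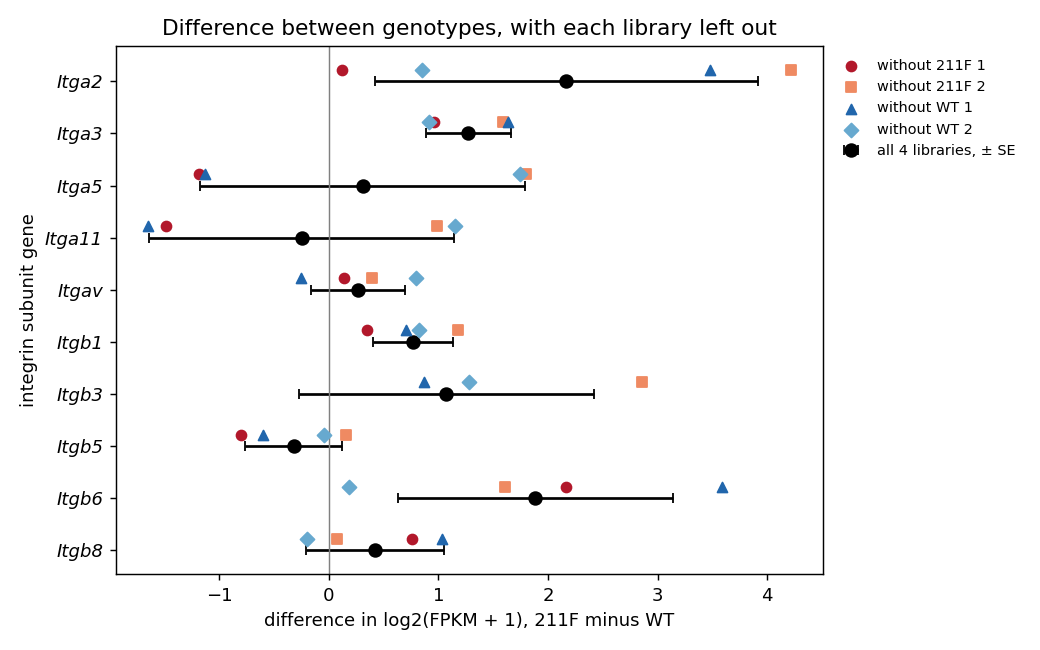
Difference in log2(FPKM + 1), 211F minus WT, for each integrin subunit gene: black points are the fit to all 4 libraries with its SE, and coloured points are fits with 1 library left out (Itgb3 without 211F 1 fell under the filter). Itga2, Itga3, Itgb1 and Itgb6 stayed positive in every fit, and Itgb6 came down to 0.18 without WT 2. For Itga3 and Itgb1, whose genotypes lie apart, leaving out a library could not turn the sign. Itgb3 was positive in the fits shown, but its 211F 2 value lay below both WT values.

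Of the summed FPKM of the 5 beta genes that pair with alpha v, Itgb1 held 88.1% and 87.5% in 211F 1 and 211F 2, against 81.3% and 80.0% in WT 1 and WT 2. The makeup of the smaller remainder differed between the cultures. Of the summed FPKM of Itgb3, Itgb5, Itgb6 and Itgb8, Itgb5 held 76.2% and 65.0% in 211F 1 and 211F 2, against 77.7% and 97.4% in WT 1 and WT 2. Itgb6 held 10.8% and 27.5% in 211F 1 and 211F 2, against 16.2% and 0.263% in WT 1 and WT 2. Itgb3 held 10.6% in 211F 1 and at most 1.03% in the other libraries. The activating subunits Itgb6 and Itgb8 together were at 13.7 and 21.5 FPKM in 211F 1 and 211F 2, against 16.1 and 1.39 FPKM in WT 1 and WT 2. The ratio of Itgb6 to Itgb8 was 4.51 and 3.66 in 211F 1 and 211F 2, against 2.95 and 0.199 in WT 1 and WT 2. These are shares of transcript; pairs on the cell surface were not measured.

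Among the alpha subunits, Itga3 made up 62.3% of the summed FPKM of Itga2, Itga3, Itga5, Itga11 and Itgav in 211F 1, and 71.6% in 211F 2. Its share was 70.6% in WT 1 and 36.0% in WT 2. Itgav was ahead of Itga3 in WT 2 alone, at 42.2% of the sum. Itga5 held 10.8% and 2.15% in 211F 1 and 211F 2, against 2.61% and 18.9% in WT 1 and WT 2. The summed level of the 5 alpha genes was 524 and 293 FPKM in 211F 1 and 211F 2, against 196 and 233 FPKM in WT 1 and WT 2. The ratio of Itgb1 to this sum was 1.46 and 1.46 in 211F 1 and 211F 2, against 1.65 and 1.51 in WT 1 and WT 2. That ratio holds only for the 5 alpha genes chosen here. Itga6, an alpha gene outside the sum, was at 73.3 and 109 FPKM in 211F 1 and 211F 2, against 199.8 and 9.47 FPKM in WT 1 and WT 2.

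**Figure D3:**
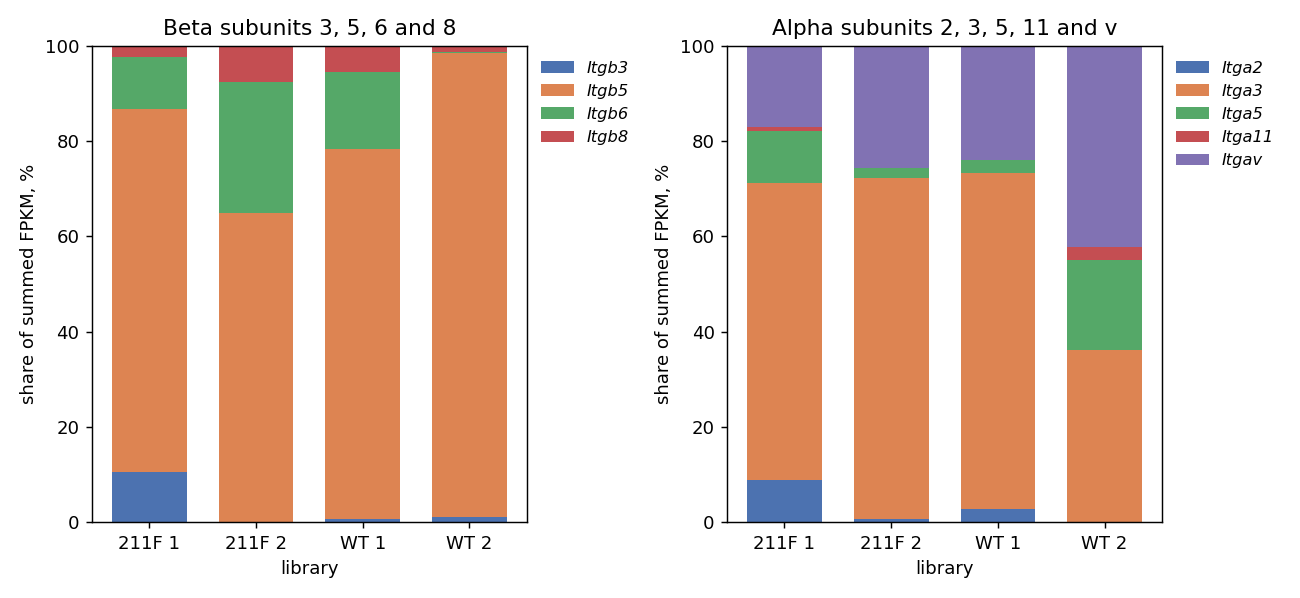
Shares, in percent of summed FPKM, of the beta subunits 3, 5, 6 and 8 (left) and of the alpha subunits 2, 3, 5, 11 and v (right) in each library. Itgb5 leads the beta subunits in all 4 libraries, Itgb6 is a thin band only in WT 2 (0.263%), and Itga3 leads the alpha subunits in all but WT 2.

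The 10 subunits varied more between libraries than most genes. Their median range over the 4 libraries was 2.42 on the log2 scale, against 0.82 over all genes tested, and all 10 lay above that median. The genes were listed with earlier results of these data known, so this is a description. The libraries of the same genotype differed, at the median subunit, by 0.90 for 211F and by 1.14 for WT. The median over all genes tested was 0.40 for 211F and 0.48 for WT. The highest library was 211F 1 for 5 subunits, WT 2 for 3 and 211F 2 for 2. Over all genes tested, the shares highest in these libraries were 22.4%, 30.2% and 26.2%, in that order. By the root mean square difference of values centred on each gene's own mean over the 4 libraries, the closest pair was Itga5 and Itga11 (0.33 on the log2 scale), followed by Itga3 and Itgb1 (0.40) and by Itgav and Itgb5 (0.42).

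By the same measure over 4 libraries, a number too small for a test, the tested gene nearest to Itga5 was Ltbp1, which encodes a latent TGF-beta binding protein (0.14), at 128 and 16.4 FPKM in 211F 1 and 211F 2, against 12.1 and 82.0 FPKM in WT 1 and WT 2. The nearest gene to Itgb6 was Alcam, a cell adhesion molecule (0.09), at 54.2 and 85.7 FPKM in 211F 1 and 211F 2, against 52.7 and 4.21 FPKM in WT 1 and WT 2. Itga2 was nearest to Aldh1a3, a retinaldehyde dehydrogenase (0.19), and Itgb3 to Klhdc8a (0.09). Itga3 had Rragb, a subunit of the Rag GTPases, as its nearest (0.14). Itgb5 had Dst, the cytoskeletal linker dystonin (0.02), and Wwtr1, the transcription coactivator TAZ (0.02), among its nearest 3. For Itga11 the nearest was Pdk4, a pyruvate dehydrogenase kinase (0.13), for Itgav Krt10 (0.03), for Itgb1 Polr3d (0.03), and for Itgb8 Ctns, the lysosomal cystine transporter (0.04).

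Of the 17 other integrin subunit genes, 7 were tested and none was called by limma, with 4 differences positive and 3 negative (median 0.95). Itga6 and Itgb4 form the laminin receptor of hemidesmosomes. Itga6 was at 73.3 and 109 FPKM in 211F 1 and 211F 2, against 199.8 and 9.47 FPKM in WT 1 and WT 2, and Itgb4 at 76.6 and 356 FPKM in 211F 1 and 211F 2, against 135 and 0.558 FPKM in WT 1 and WT 2. Both were lowest in WT 2, as Itgb6 was. Itga7, another laminin-binding alpha subunit, was at 15.1 and 3.49 FPKM in 211F 1 and 211F 2, against 0.504 and 0.977 FPKM in WT 1 and WT 2 (difference 2.30 ± 0.77, SE; limma unadjusted p = 0.0397, adjusted p = 0.9999). Itga1, the collagen receptor partner of beta 1, did not exceed 3.16 FPKM. Itga8, an RGD-binding partner of beta 1, was at 3.999 and 3.847 FPKM in 211F 1 and 211F 2, against 5.22 and 0.0430 FPKM in WT 1 and WT 2. Itga2b, the platelet partner of beta 3, was at 0.746 and 1.51 FPKM in 211F 1 and 211F 2, against 2.78 and 3.95 FPKM in WT 1 and WT 2. Of the leukocyte subunits, Itgal, Itgam, Itgax, Itgad and Itgb2 did not exceed 0.458 FPKM in any library, but Itgb7 was at 0.633 and 0.0702 FPKM in 211F 1 and 211F 2, against 0.0656 and 3.25 FPKM in WT 1 and WT 2.

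The cells also made transcripts of the matrix that these receptors bind. Of 19 matrix ligand genes 17 were tested and none was called by limma, with 9 differences positive and 8 negative (median 0.29). Fn1, which encodes fibronectin, was at 1851 and 26.6 FPKM in 211F 1 and 211F 2, against 129 and 622 FPKM in WT 1 and WT 2, so it was high in the libraries where Itga5 was high. Vtn, which encodes vitronectin, did not exceed 0.200 FPKM in any library. Spp1, which encodes osteopontin, was at 1399.7 and 121.7 FPKM in 211F 1 and 211F 2, against 326 and 206 FPKM in WT 1 and WT 2. It was highest in 211F 1, the library in which Itgb3 was highest. Lama3 and Lamb3 encode chains of a laminin that alpha 3 binds. Lama3 was at 21.3 and 56.6 FPKM in 211F 1 and 211F 2, against 25.4 and 0.109 FPKM in WT 1 and WT 2, and Lamb3 was at 41.2 and 158 FPKM in 211F 1 and 211F 2, against 178 and 0.365 FPKM in WT 1 and WT 2. Both were near 0 in WT 2, the library in which Itga3 was lowest. Thbs1, the adhesive glycoprotein thrombospondin 1, was at 952 and 189 FPKM in 211F 1 and 211F 2, against 122 and 176 FPKM in WT 1 and WT 2. Mfge8, an RGD protein that bridges alpha v integrins to dying cells, was at 148 and 79.1 FPKM in 211F 1 and 211F 2, against 156 and 172 FPKM in WT 1 and WT 2.

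Transcripts of the growth factor that beta 6 and beta 8 pairs release were present in all 4 libraries. Tgfb1 was at 22.3 and 19.6 FPKM in 211F 1 and 211F 2, against 26.3 and 31.2 FPKM in WT 1 and WT 2 (20.96 ± 1.90 FPKM in 211F and 28.74 ± 3.48 FPKM in WT, mean ± SD, n = 2 each; difference -0.44 ± 0.25, SE; limma adjusted p = 0.9999). Tgfb3, whose latency peptide also carries RGD, was at 29.9 and 19.6 FPKM in 211F 1 and 211F 2, against 54.0 and 22.8 FPKM in WT 1 and WT 2. Tgfb2, whose latency peptide lacks it, was at 28.1 and 18.3 FPKM in 211F 1 and 211F 2, against 23.7 and 16.4 FPKM in WT 1 and WT 2. Ltbp3, which tethers the latent complex to matrix as Ltbp1 does, was at 67.4 and 45.7 FPKM in 211F 1 and 211F 2, against 50.6 and 84.1 FPKM in WT 1 and WT 2. Lrrc32, which encodes the cell surface anchor GARP, was at 2.04 and 2.36 FPKM in 211F 1 and 211F 2, against 8.72 and 4.92 FPKM in WT 1 and WT 2 (difference -1.25 ± 0.44, SE; limma unadjusted p = 0.0463, adjusted p = 0.9999). Tgfbr3, the co-receptor betaglycan, was at 6.13 and 2.80 FPKM in 211F 1 and 211F 2, against 13.3 and 59.0 FPKM in WT 1 and WT 2 (limma unadjusted p = 0.0409, adjusted p = 0.9999). Ltbp4, another latent TGF-beta binding protein, was at 4.71 and 9.21 FPKM in 211F 1 and 211F 2, against 12.5 and 9.22 FPKM in WT 1 and WT 2. Of the 14 genes of the latent complex and its receptors 13 were tested and none was called, with 6 differences positive and 7 negative (median -0.03), and in 4 of them both 211F libraries lay below both WT libraries, where 11.6% of all genes tested did so.

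Genes known to respond to TGF-beta had 10 positive and 4 negative differences among 14 tested (median 0.47), and none was called by limma. Tgfbi, a secreted protein that binds integrins, was at 1.43 and 3.33 FPKM in 211F 1 and 211F 2, against 18.1 and 61.1 FPKM in WT 1 and WT 2 (difference -3.41 ± 0.72, SE; limma unadjusted p = 0.00904, adjusted p = 0.9999). Smad7, the feedback inhibitor of the receptor, was at 35.1 and 22.3 FPKM in 211F 1 and 211F 2, against 9.60 and 16.6 FPKM in WT 1 and WT 2 (difference 1.09 ± 0.42, SE). Smurf1, a ubiquitin ligase of the pathway, was at 53.9 and 71.8 FPKM in 211F 1 and 211F 2, against 45.2 and 33.1 FPKM in WT 1 and WT 2. Junb, an AP-1 factor, was at 104 and 106 FPKM in 211F 1 and 211F 2, against 77.2 and 79.7 FPKM in WT 1 and WT 2. Smad7, Smurf1 and Junb lay higher in both 211F libraries and Tgfbi lower in both, but these 4 were named for having the smallest p in the list. Among the 14 tested, both 211F libraries lay above both WT libraries in 4, where 15.2% of all genes tested did so. In 1 both lay below, against 11.6% of all genes tested. None of the differences holds up against the correction over all genes.

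**Figure D4:**
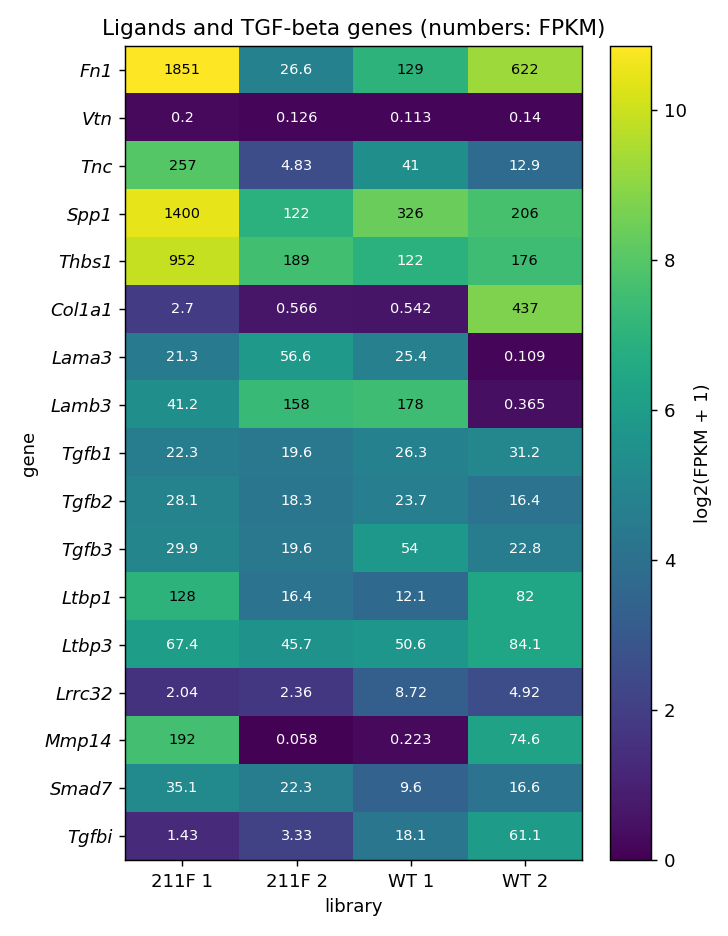
Levels of matrix ligand, latent TGF-beta and TGF-beta response genes in each library: colour is log2(FPKM + 1) and the number in each square is FPKM. Fn1 and Ltbp1 are high in 211F 1 and WT 2, Vtn is near 0 in all libraries, and Tgfb1 lies between 19.6 and 31.2 FPKM.

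Proteins that bind integrin tails or link them to actin had 20 positive and 7 negative differences among 27 tested (median 0.35), and none was called by limma. In 6 of the 27 both 211F libraries lay above both WT libraries, where 15.2% of all genes tested did so, and in 1 both lay below, against 11.6% of all genes tested. Actn1, the actin crosslinker alpha-actinin 1, was at 554 and 199 FPKM in 211F 1 and 211F 2, against 113 and 135 FPKM in WT 1 and WT 2 (difference 1.42 ± 0.56, SE). Tln1, which encodes talin 1, the adaptor that switches integrins on, was at 142 and 71.6 FPKM in 211F 1 and 211F 2, against 58.8 and 69.4 FPKM in WT 1 and WT 2. It repeated the order seen for Itgb1 in being highest in 211F 1, with 211F 2 close to WT. Src, the tyrosine kinase of adhesions, was at 77.5 and 53.7 FPKM in 211F 1 and 211F 2, against 49.7 and 41.8 FPKM in WT 1 and WT 2. Fermt1, the kindlin of epithelia that binds beta tails, was at 20.8 and 25.7 FPKM in 211F 1 and 211F 2, against 19.6 and 0.0266 FPKM in WT 1 and WT 2, and was near 0 only in the library where Itgb6 was near 0.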

How the data were processed

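RNA was measured in 4 libraries, and the values used are FPKM as deposited by the authors, with no read counts; the table's own name gives the unit. Per the labels' protocols, a strand-specific kit was used. The submitters' processing notes list TopHat2 2.0.13, DESeq2 without a version and the GRCm38 build, without saying what each did. The sources used here do not name the FPKM program or say whether it used strand. Where counting used no strand, overlapping genes share reads. Symbols were matched for 50369 of 50679 identifiers, and positions are from GENCODE M21.

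Depth was read from low values: in genes with 1 transcript of at least 3000 bases, 94.5% (211F 2) to 96.2% (WT 1) of low values fell within 0.1 of a whole fragment. Whether values were rescaled between libraries is not known, and intervals from counts were not made.

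Values were analysed as log2(FPKM + 1) for genes averaging 1 FPKM or more, with limma 3.58.1 in R 4.3.3 (two-sided, intensity trend, Benjamini-Hochberg over all genes, threshold 0.05). The code was tested on simulated data. The 10 subunits and the gene lists were chosen with earlier results of these data known. Genes outside the 10 were named by rule: Pcna and Epcam, fixed partners and ligands, up to 4 genes of smallest p from each list, marker genes, and the 3 nearest genes to each subunit. The leukocyte subunits, Col5a1, Spp1 and Lamb3, and Tnc and Mmp14 in the plot of ligands, were named from the lists after their values were seen. Pcna, the gene of the altered protein, was at 173 and 119 FPKM in 211F 1 and 211F 2, against 155 and 147 FPKM in WT 1 and WT 2. Its transcript level cannot show which allele a library carries. Alternatives were 2 other pseudocounts, 2 other filters, 2 scalings, no trend, a replicate block and each library left out. Some genes that the naming rule gives are not reported here.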

Additional observations from a re-analysis of the deposited data

How the results depend on the processing

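limma called 0 genes and 0 integrin subunits under every alternative that was run. All 10 differences kept their sign under the other pseudocounts and scalings. The filters, the untrended prior and the replicate block cannot change a difference in this balanced design, so under them a kept sign shows nothing. At a mean of at least 5 FPKM, Itga11, Itgb3 and Itgb8 were not tested. Leaving out each library turned the sign of 5 subunits: the difference ranged from -1.18 to 1.80 for Itga5, from -1.65 to 1.16 for Itga11, from -0.26 to 0.79 for Itgav, from -0.80 to 0.16 for Itgb5 and from -0.20 to 1.04 for Itgb8. Itgb3 is not counted among these, as the filter dropped it without 211F 1. Its 211F 2 value lay below both WT values. The median over the subunits was 0.59 with all libraries and 0.14 to 1.39 with 1 left out, lowest without 211F 1 and highest without 211F 2. A genotype left with 1 library borrows its spread from the other genotype. Before adjustment, 241 genes had a p under 0.05. The unfiltered table, with more genes tested, had 745, the fit with the replicate block 142 and the fit without WT 1 843; for the last 2 the cause was not tested. No label ties replicate 1 of one genotype to replicate 1 of the other. The deviations of libraries sharing a number had r = -0.465 across genes, which are not independent, and a crossed pairing, chosen after seeing the data, also called 0 genes. With 2 libraries per genotype, differences of the size seen within a genotype could not be told from 0.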
